A study of Mus musculus with 2 samples.

Results

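Guanylate-binding proteins (GBPs) and immunity-related GTPases (IRGs) were examined as 10 genes chosen by symbol, *Gbp2*, *Gbp3*, *Gbp4*, *Gbp6*, *Gbp7*, *Igtp*, *Irgm1*, *Irgm2*, *Iigp1* and *Tgtp1*, of the 24532 genes in the count table. Both libraries came from cardiac myofibroblasts of C57BL/6 mice (C57BL/6J for isolated myofibroblasts in the study's methods), taken 3 days after myocardial infarction (MI) as the cells of the digested hearts that carried no CD45, with no interferon among the treatments listed. One culture received 12.5 nM of a control siRNA (siCtrl) and the other 12.5 nM of an siRNA against *Vgll3* (si*Vgll3*), which encodes a transcription cofactor, and total RNA was taken after 72 h. The study's methods give adult male mice for MI surgery and do not say how many hearts went into each culture. There was 1 library per condition, so the differences below rest on a single pair of libraries, without a replicate check, and carry no p-value.

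GBPs and IRGs are GTPases that cells make in response to interferons, above all interferon gamma. GBPs belong to the dynamin superfamily and assemble on the vacuoles of intracellular pathogens and on bacteria that have escaped into the cytosol. Among the IRGs, IRGM1, IRGM2 and IGTP (also called IRGM3) sit on the cell's own membranes and keep the effector IRGs, such as IIGP1 (IRGA6) and TGTP1 (IRGB6), inactive there, while the effectors load onto vacuoles that lack this protection. Transcription of these genes is classically driven through 2 DNA elements. The interferon-stimulated response element (ISRE) is bound by IRF factors, and the gamma-activated site (GAS) serves the response to interferon gamma.

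These elements were looked for as letters in the RefSeq promoter windows of GRCm38.p6, each 300 bases long from 250 bases before to 50 after a transcription start. The ISRE core was searched as GAAANNGAAA on both strands and the GAS as TTCNNNGAA, which reads the same on both strands. Windows were matched for 7 of the 10 genes, *Gbp4*, *Gbp6* and *Iigp1* being the others. All 7 genes held an ISRE core, against 3.44% of the 32851 windows in the table and 3.99% of its 27025 genes. A GAS was found in 4 of the 7, against 8.30% of all windows. The stretches that hold the matches are shown with the matches in capitals, since they are what these genes share that their choice by name did not use.
*Gbp2*, chr3:142620589-142620618, plus strand: taggaactcttttagTTTCACTTTCactgt
*Gbp3*, chr3:142559984-142560015, plus strand: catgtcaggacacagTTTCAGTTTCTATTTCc
*Gbp7*, chr3:142530215-142530297, plus strand: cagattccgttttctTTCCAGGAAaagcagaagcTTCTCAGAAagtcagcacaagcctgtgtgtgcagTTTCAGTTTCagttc
*Irgm1*, chr11:48871430-48871465, minus strand: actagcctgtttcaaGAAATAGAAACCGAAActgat
*Tgtp1*, chr11:48992309-48992349, minus strand: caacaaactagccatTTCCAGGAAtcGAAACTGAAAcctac
*Igtp*, chr11:58199496-58199536, plus strand: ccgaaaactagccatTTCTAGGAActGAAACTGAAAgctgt
*Irgm2*, chr11:58214887-58214927, plus strand: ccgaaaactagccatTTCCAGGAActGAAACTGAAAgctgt

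In *Gbp2*, *Gbp3* and *Gbp7* the ISRE core lay on the opposite strand and in the IRG genes on the strand of the gene. The first bases of the 9 ISRE matches lay between 24 and 77 bases before the start. In *Gbp3* and *Irgm1* a pair of ISRE matches overlapped each other, and in no window did an ISRE match overlap a GAS match. A further window of *Gbp3*, at a later start, held neither motif. *Tgtp1*, *Igtp* and *Irgm2* shared an arrangement in which the GAS ended 2 bases before the ISRE core. This spacing was noticed in these windows and then searched for, and 5 of the 32851 windows held it, those of *Tgtp1*, *Igtp*, *Irgm2*, *Tgtp2* and *Gm12185*, all IRG genes of chromosome 11. The stretches are alike beyond the motifs, with 40 of 41 bases identical between *Igtp* and *Irgm2* and 32 of 41 between *Igtp* and *Tgtp1*, so they are not independent cases. No binding was measured, and a match of letters is not evidence of a site in use.

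**Figure D1:**
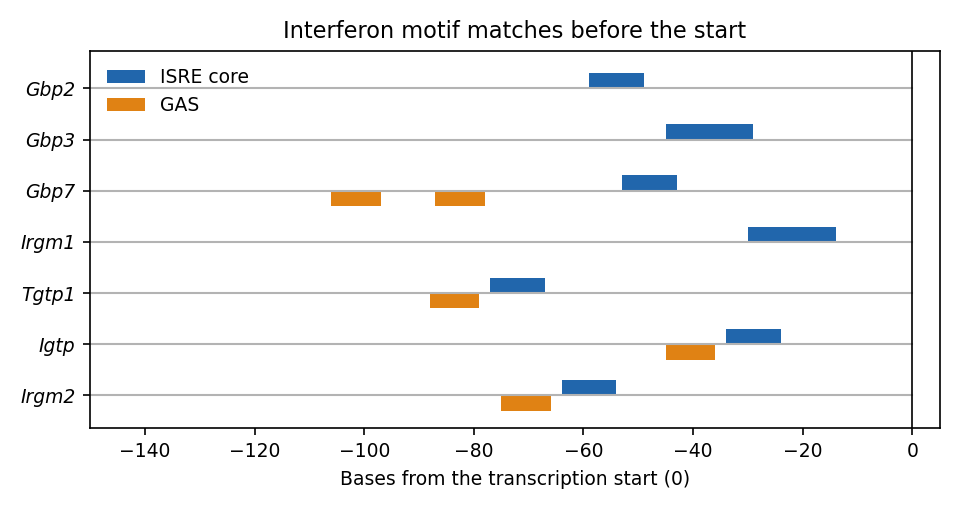
Matches to the ISRE core (blue) and the GAS (orange) plotted by their distance in bases from the transcription start at 0, for the 7 genes with a promoter window. Every gene has an ISRE core between 77 bases and the start, and the GAS of *Tgtp1*, *Igtp* and *Irgm2* sits directly before it.

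The siCtrl library held 140815237 reads on genes and the si*Vgll3* library 125789276. The level of a gene is given as the deposited TPM, a value scaled by the authors for gene length and library size, and levels of different genes are compared on this scale only. M is the log2 ratio of the TPM in si*Vgll3* to that in siCtrl, A is log2 of their mean, and a gene was called lower at M < −0.5 and A > 0, the thresholds of the study. Square brackets hold the 95% Clopper-Pearson interval from the 2 read counts of the gene, shifted so that it surrounds the M from TPM. It covers counting error only. The siRNA target *Vgll3* went from 202 to 84.0 TPM, an M of −1.27 [−1.29, −1.24]. Of the 12 fibroblast and myofibroblast markers, all had A > 0, with a summed TPM of 25033 against 22029. Their M ran from −1.22 to 0.72, and 6 were called lower and 2 higher, against 11.4% and 5.73% of all genes with A > 0. Of 16 leukocyte markers, 10 had 0 reads in both libraries, *Ptprc* (CD45, by which leukocytes were removed) among them, and the others moved apart. *Lyz2* went from 10.9 to 3.13 TPM (M −1.80) and was called lower, while *Cd14* (M 0.62) and *Csf1r* (M 0.50) were called higher. The 10 endothelial markers had M from −0.66 to 0.97, with *Eng* at 272 and 266 TPM, *Tek* called lower at 19.5 and 13.4 TPM and *Egfl7* at 5.71 and 7.65 TPM. Of 10 cardiomyocyte markers, 8 had 0 reads in both libraries, while *Tnnt2* went from 60.0 to 10.4 TPM. *Tnni3*, named after its counts were seen, went the other way, with 0 siCtrl reads and 10 si*Vgll3* reads. The part of other cell types in the results below was not tested. In bulk RNA, fewer cells that express a gene and less of its RNA per cell cannot be told apart.

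Every one of the 10 genes had reads in siCtrl, and every one had fewer reads relative to library size after the knockdown. TPM was listed for 9 of them, all with M below 0, beside 7880 of all 14149 genes with an M. The median M of the 9 genes was −2.07, with values from −2.77 to −0.37. Over all 11754 genes with A > 0 the median M was −0.05. The filter A > 0 was passed by 7 of the 10 genes, of which 6 were called lower, against 11.4% of all genes that passed it. *Gbp7* passed only through its siCtrl level, and 6 genes had more than 1 TPM in both libraries, so the count of those that passed is no measure of the family. The whole counting interval lay below −0.5 for the same 6 genes, against 8.31% of all genes, and M was below −1 for 5, against 3.27%. The genes not called were *Gbp2*, by its M, and *Gbp4*, *Gbp6* and *Tgtp1*, by their level.

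**Figure D2:**
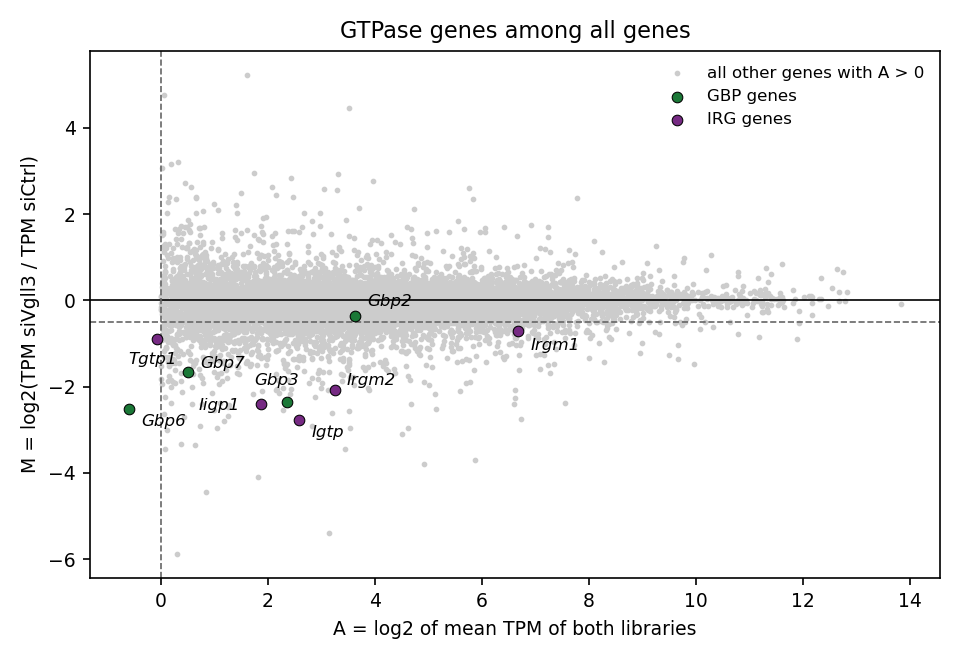
M plotted against A for the 9 genes with a listed TPM (green, GBP; purple, IRG) among all genes with A > 0 (grey), each point 1 gene in 2 libraries. Of the coloured points only *Gbp2*, at −0.37, lies above the dashed line at M = −0.5, and *Gbp6* and *Tgtp1* lie left of A = 0.

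The regulatory IRGs, all on chromosome 11, fell by very different amounts. In mm10, *Irgm1* lies at 48865245 to 48871420, and *Igtp* (58199556 to 58207592) and *Irgm2* (58214977 to 58222783) lie side by side. *Irgm1*, whose product acts at lysosomes and mitochondria and in autophagy, had 18049 reads with siCtrl against 10152 with si*Vgll3*. This is 127 and 77.1 TPM, an M of −0.72 [−0.75, −0.68]. *Irgm1* was the most abundant of the 10 genes in both libraries, with 68.3% of their summed TPM in siCtrl and 79.2% in si*Vgll3*. *Irgm2*, which encodes a regulator of the Golgi region, had 3430 and 757 reads. Its level went from 15.3 to 3.64 TPM, an M of −2.07 [−2.18, −1.95], which left 23.8% of it. *Igtp* encodes the regulator of the endoplasmic reticulum and lipid droplets, and had 1354 and 184 reads. It went from 10.5 to 1.53 TPM, an M of −2.77 [−3.0, −2.55], with 14.6% left. This was the lowest M of the 9 genes with a listed TPM, and its interval overlapped that of *Gbp6*. In the order of M over the 11754 genes with A > 0, counted from the lowest, *Igtp* was at place 19, *Irgm2* at 55 and *Irgm1* at 736. The intervals of the 3 genes do not overlap. *Igtp* and *Irgm2* are the pair with nearly the same promoter stretch shown above, and whether this stretch bears on M was not tested. Of the genes with a window, *Irgm1*, *Gbp2* and *Gbp3* have no GAS in it, and their M ran from −2.36 to −0.37. In the 4 with a GAS, *Igtp*, *Irgm2*, *Gbp7* and *Tgtp1*, M ran from −2.77 to −0.90. Whether a GAS bears on M was not tested.

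*Iigp1* and *Tgtp1*, the effectors among the 10 genes, were lower in level than the 3 regulators in siCtrl. *Iigp1*, which encodes the effector IRGA6 and lies on chromosome 18 (60373616 to 60392634), had 1163 reads against 206 after the knockdown. It went from 6.13 to 1.16 TPM, an M of −2.40 [−2.62, −2.19]. *Tgtp1*, which encodes IRGB6 and lies near *Irgm1* on chromosome 11 (48985329 to 48992246), had 223 and 111 reads. Its level was 1.24 TPM without and 0.665 TPM with knockdown of *Vgll3*, an M of −0.90 [−1.24, −0.57] at an A of −0.07, just outside the filter. *Tgtp1* has a near-identical copy, *Tgtp2*, and 79.4% of the 50-base words of its GENCODE transcripts also occur in those of *Tgtp2*, so how reads were divided between them is uncertain. *Tgtp2* had 407 and 139 reads and an M of −1.45 [−1.73, −1.16], whose interval overlaps that of *Tgtp1*. Summed over both genes, 630 and 250 reads were counted, and the TPM was 3.50 and 1.495, an M of −1.23.

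Among the GBPs, *Gbp2* stood apart from the other members. *Gbp2* encodes a GBP that is anchored in membranes by a lipid at its C-terminus, and had 2175 reads against 1558 after the knockdown. Its level was 13.9 and 10.7 TPM, an M of −0.37 [−0.46, −0.28], so it did not reach the threshold and its interval lay above it. *Gbp3* had 1440 and 259 reads. It fell from 8.61 to 1.68 TPM, an M of −2.36 [−2.56, −2.17]. *Gbp7* had 770 and 226 reads. It fell from 2.15 to 0.681 TPM, an M of −1.66 [−1.88, −1.44]. These 3 genes lie on chromosome 3, between 142530336 and 142638008 of mm10, and no pair of their intervals overlaps.

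Of the 5 GBPs among the 10 genes, both on chromosome 5 had the lowest levels. *Gbp6* (105270702 to 105295871) had 311 reads against 50 after the knockdown, or 1.13 and 0.196 TPM, an M of −2.52 [−2.98, −2.09] at an A of −0.60. Of the 50-base words in its transcripts, 70.7% occur in transcripts of another gene and 65.0% in those of the predicted gene *Gm43302*, and its near copy *Gbp10* had 0 reads in both libraries. *Gbp4* (105115767 to 105139586), with 10 siCtrl reads and 0 after the knockdown, has no TPM. A count of 0 allows up to 3 reads. With the 10 siCtrl reads taken as exact, *Gbp4* was at least 2.98-fold lower relative to library size. Its interval from reads, which includes the error of both counts, ended at a log2 ratio of −1.002. With *Gbp4* placed at the 2.98-fold bound, the median M of the 10 genes was −1.86. For the 8 genes other than *Tgtp1* and *Gbp6*, 0.31% to 12.7% of such words were shared with another gene. *Gbp2* overlaps *Mir6381*, and *Gbp3* and *Tgtp1* each overlap a long noncoding RNA gene in the RefSeq annotation. The libraries were stranded, but whether strand was used in counting is not given in the sources used here.

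**Figure D3:**
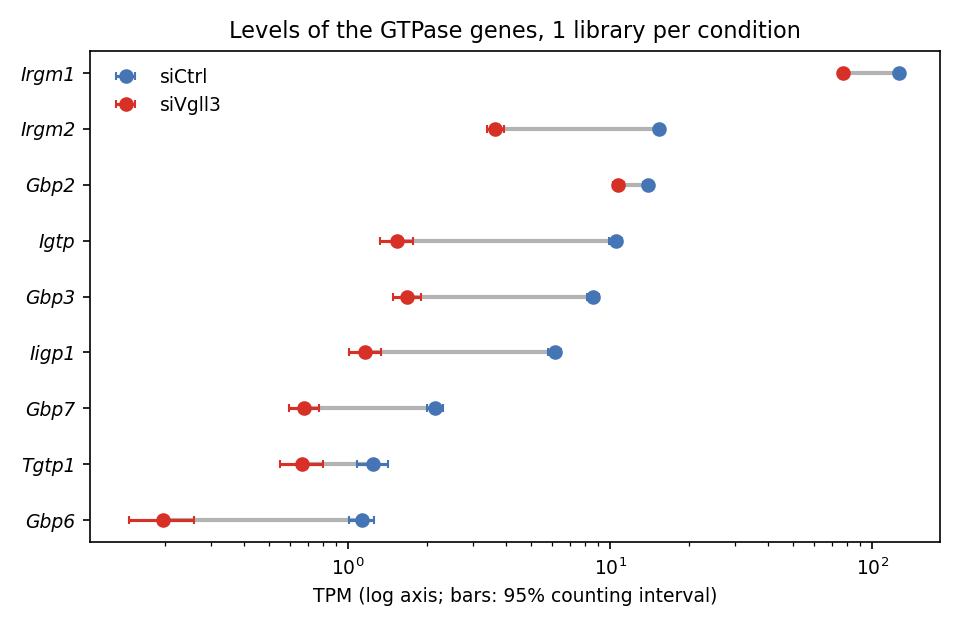
TPM (log axis) of the 9 genes with a listed TPM in siCtrl (blue) and si*Vgll3* (red), 1 library each, with bars for the 95% counting interval of each level. Every red point lies left of its blue point, with a short distance for *Irgm1* (127 to 77.1) and *Gbp2* (13.9 to 10.7) and a long one for *Igtp* (10.5 to 1.53).

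Set in order of M, the genes fell into steps larger than counting error. *Igtp*, *Gbp6*, *Iigp1*, *Gbp3* and *Irgm2* had M at or below −2, and each interval overlapped the next in this order. *Gbp7* overlapped neither neighbour. *Tgtp1* and *Irgm1* overlapped each other, and *Gbp2* was separate from both. The places of *Tgtp1* and *Gbp6* are uncertain, since most of their 50-base words are shared with other genes. From library-scaled reads, *Tgtp1* summed with *Tgtp2* had an M of −1.17 [−1.39, −0.96]. That interval did not overlap the one of *Irgm1* from reads [−0.70, −0.63]. Both families were spread over this range, with a median M of −2.01 over 4 GBPs and −2.07 over 5 IRGs.

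The order of the levels changed accordingly. In siCtrl it ran *Irgm1*, *Irgm2*, *Gbp2*, *Igtp*, *Gbp3*, *Iigp1*, *Gbp7*, *Tgtp1* and *Gbp6*, and only the intervals of *Tgtp1* and *Gbp6* overlapped. In si*Vgll3*, *Gbp2* moved above *Irgm2*, and *Gbp3* above *Igtp*. There *Gbp3* and *Igtp*, *Igtp* and *Iigp1*, and *Gbp7* and *Tgtp1* overlapped. The summed level of the 9 genes was 186 TPM with siCtrl against 97.4 TPM with si*Vgll3*, which left 52.4%. Without *Irgm1* it was 58.9 and 20.3 TPM, and 34.5% was left, so the sum is mostly a measure of *Irgm1*.

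A change in the gene length that the authors' software assigned would move TPM but not the reads. M from TPM differed from M from library-scaled reads by −0.07 to −0.05 in the 9 genes. Over all genes with A > 0 this difference had a median of −0.05, with a central 95% from −0.08 to −0.02. The difference was further from 0 for some genes named below, among them *Gm4070* (−0.26), *Nlrc5* (−0.63) and *Gvin1* (0.18).

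The rest of both families, from a list that also holds members at very low levels, gave 3 further GBPs and 10 further IRGs with reads. *Gbp5*, which encodes another membrane-anchored GBP, had 196 reads against 19, an M of −3.27 [−4.04, −2.59], and *Gbp9* had 540 and 153 reads, an M of −1.71 [−1.98, −1.45]. *Gbp8* had 14 and 0 reads, and *Gbp2b*, *Gbp10* and *Gbp11* had 0 in both libraries. Of these only *Gbp9* passed the filter on A, by its siCtrl level (2.33 against 0.709 TPM), and it was called lower, beside 11.4% of all genes. Together with the members, all 6 GBPs with an M lay below 0, beside 7880 of all 14149 genes with an M. On chromosome 3 their order is *Gbp5*, *Gbp7*, *Gbp3*, *Gbp2b* and *Gbp2*, so the GBPs with the lowest and the highest M mark the ends of 1 cluster.

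The further IRGs did not all move alike. *Gm4951*, like *Iigp1* on chromosome 18, had 162 and 15 reads, an M of −3.41 [−4.28, −2.65]. *Gm12250* (IRGB10) had 37 and 9 reads and an M of −2.07 [−3.31, −0.99]. *Gm4841* had 30 and 9 reads, an M of −1.62, and *F830016B08Rik* 13 and 0. *Ifi47* (IRGD), at 14.1 and 11.03 TPM, had an M of −0.36 [−0.47, −0.25], close to that of *Gbp2*, and its promoter window held neither motif. At the other end were *Gm12185*, with 45 and 61 reads and an M of 0.56 [−0.02, 1.15], *9930111J21Rik1* at 0.24 [0.04, 0.44], and *Irgq* at 0.05 [0.00, 0.10]. *Irgq* is a divergent member of the family, at 17.4 and 18.1 TPM, and its window held neither motif. *Gm12185* holds the same GAS and ISRE spacing as *Igtp*. Its level was only 0.132 and 0.194 TPM, outside the filter on A, and whether the spacing bears on M was not tested. *9930111J21Rik1* shares 80.4% of its 50-base words with *9930111J21Rik2*, which is listed at 0 TPM with 115 and 348 reads, so both are uncertain. Of the 8 further IRGs with an M, 5 were below 0, beside 7880 of all 14149 genes with an M. Of the 4 with A > 0, *Tgtp2* was called lower, beside 11.4% of all genes. *Tgtp2* passed the filter by its siCtrl level (2.26 against 0.830 TPM).

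**Figure D4:**
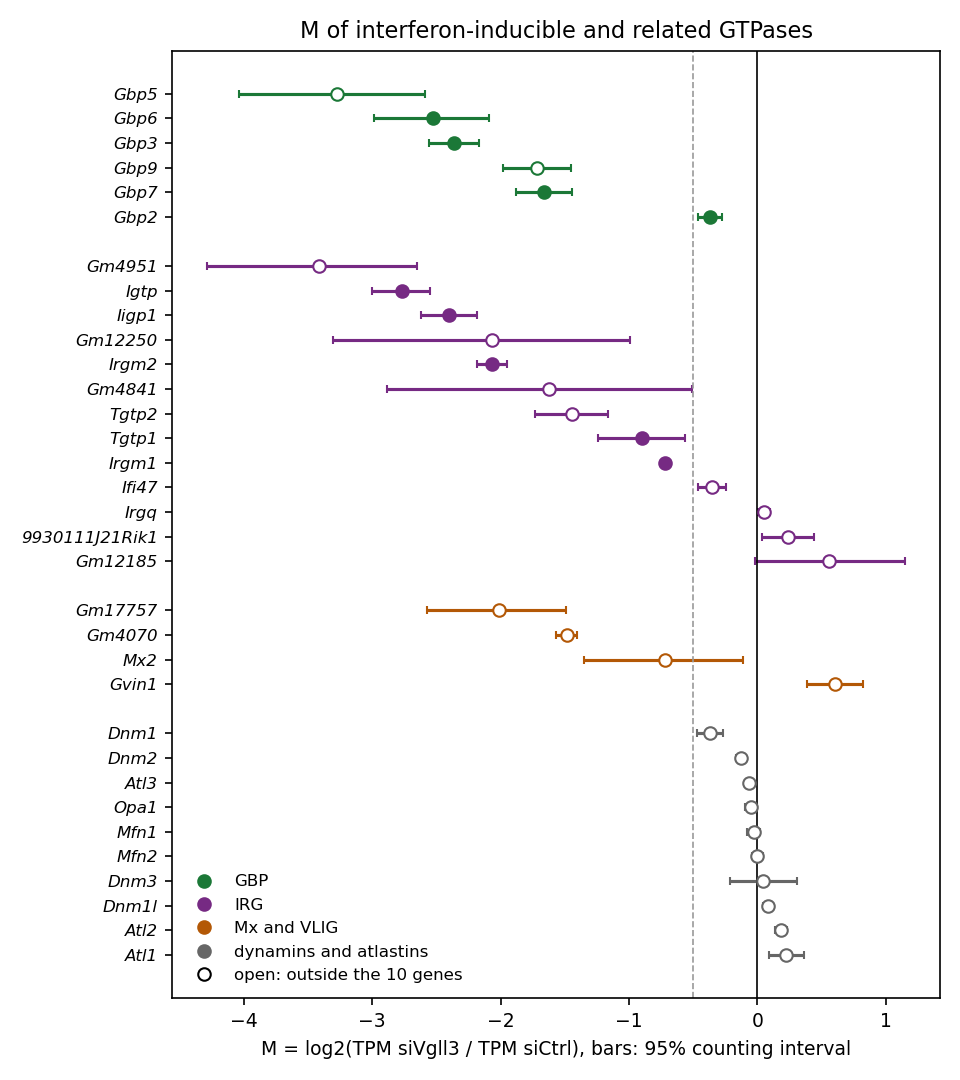
M with its 95% counting interval for GBP, IRG, Mx and VLIG genes and for dynamins and atlastins, with filled points for the 9 members and open points for all others. The GBPs run from −3.27 (*Gbp5*) to −0.37 (*Gbp2*) and the IRGs from −3.41 (*Gm4951*) to 0.56 (*Gm12185*), while the dynamins and atlastins lie between −0.37 and 0.23.

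Related GTPases were set beside them. The Mx and very large inducible (VLIG) GTPases are also made on interferon. Of this list *Gm4070*, a VLIG gene, fell from 7.56 to 2.70 TPM, an M of −1.48 [−1.57, −1.40]. From library-scaled reads its M was −1.23 [−1.31, −1.14], so the size of its fall depends on the measure. *Gm4070* was the only one with A > 0. *Mx2* had 65 and 36 reads, *Mx1* 10 and 0, and *Gvin1* 325 and 389, an M of 0.61 for *Gvin1*. *Gm17757* had 156 and 37 reads, an M of −2.01 [−2.57, −1.49], and *Gm8979* had 76 and 0. With the 76 reads taken as exact, *Gm8979* was at least 22.6-fold lower relative to library size. Its interval from reads ended at a log2 ratio of −4.17. Dynamins, mitofusins and atlastins are relatives of the GBPs with constant roles in membrane fission and fusion, and of 9 with A > 0, 0 were called lower and 0 higher, against 11.4% and 5.73% of all genes with A > 0. Their median M was −0.01 over 10 genes and lay between 0.03 and 0.04 under the count-based scalings and after centring. The most abundant, *Dnm2*, *Atl3* and *Dnm1l*, had M of −0.13, −0.07 and 0.08. None of the 13 promoter windows of all 10 genes of this list held either motif, beside 3.44% (ISRE core) and 8.30% (GAS) of all windows. Neighbours on the chromosome were also examined. Within 500 kb of the members, outside these families, 31 genes had A > 0, of which 0 were called lower and 2 higher (11.4% and 5.73% of all genes), with M between −0.48 and 0.57.

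The genes of interferon signalling, upstream of these GTPases, had both called and uncalled members. The list holds interferon receptors, kinases and transcription factors, and also inhibitors of this signalling. Of its 15 genes with A > 0, 4 were called lower and 0 higher, beside 11.4% and 5.73% of all genes. Among them were *Stat2*, *Irf9* and, named after its value was seen, *Irf7*. *Stat2* had an M of −1.60 [−1.69, −1.52] and *Irf9* of −1.59 [−1.68, −1.51]. *Irf1*, which encodes a factor needed for GBP induction by interferon gamma, had an M of −0.26 [−0.34, −0.19], at 24.1 and 20.1 TPM. *Nlrc5*, a transactivator of MHC class I genes, had 103 and 3 reads, an M of −5.56 [−7.86, −3.98] at very low level. From library-scaled reads its M was −4.94 [−7.24, −3.35]. The most abundant of the list, *Jak1*, *Ifnar2* and *Ifngr1*, had M of −0.26, 0.03 and −0.44. Of 21 interferon genes, 19 had 0 reads in both libraries, *Ifng* among them. *Ifnz* had 42 and 36 reads. *Ifnb1*, named after its counts were seen, had 0 siCtrl reads and 14 si*Vgll3* reads, the opposite direction to the GTPases. With the 14 reads taken as exact, this is at least 5.22-fold higher relative to library size against the 3 reads that a count of 0 allows. Its interval from reads began at a log2 ratio of 1.89.

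Genes that work with these GTPases were counted against the same shares, 11.4% lower and 5.73% higher over all genes, and lists this short allow no reading beyond their counts. Of 20 genes for ATG8 conjugation and vacuole adaptors, which place IRGs and GBPs on their targets, 0 were called lower. The 1 called higher, *Lgals3* (galectin-3, which marks broken vacuoles), was named after its value was seen and went from 40.0 to 131 TPM, an M of 1.71 [1.65, 1.76]. *Gabarap* and *Sqstm1*, among the most abundant of the list, had M of −0.22 and −0.23. Of the inflammasome and caspase-11 genes, on which GBPs act, 5 had A > 0 and 1 was called higher, *Aim2* at 0.61 [0.51, 0.72], also named after its value was seen. *Ninj1*, *Gsdmd* and *Casp4* (caspase-11) had M of 0.12, −0.37 and −0.00. Of the 7 genes of CaaX prenylation, which attaches the lipid anchor of GBP2 and GBP5, *Ggps1* was called lower. *Ggps1* encodes the enzyme that makes geranylgeranyl diphosphate, and it went from 21.6 to 9.19 TPM, an M of −1.24 [−1.30, −1.17]. It too was named after its value was seen. *Zmpste24*, *Fnta* and *Icmt*, with the highest mean TPM of this list, had M of 0.17, 0.04 and 0.08.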

How the data were processed

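Per the labels, TruSeq Stranded mRNA libraries were sequenced on a NovaSeq instrument, and the authors used FastQC, Trimmomatic, HISAT2 on mm10 and StringTie, with versions not given in the sources used here. The authors deposited raw counts per gene for both libraries and TPM per gene for 14158 genes. The 10 genes and all lists were chosen with earlier results of these data known. M, A and counting intervals were computed with Python 3.11.15, scipy 1.17.1 and numpy 2.4.6, and checked on simulated counts. With 1 library per group no model was fitted, and edgeR 4.0.16 and DESeq2 1.42.0 gave scaling factors only. Gene positions and promoter windows came from RefSeq for GRCm38.p6, the assembly of mm10, matched by NCBI gene number for 10 of 10 genes, and transcript words from GENCODE M21. Values were named for all 10 genes, for related interferon-inducible GTPases with reads, for *Vgll3* and direct regulators, and for at most the 3 genes of highest mean TPM in each other list, less items that are not reported here. *Ptprc* and *Ifng* were added for their roles, and genes marked as named after their values were seen fall outside this rule. Protein sequences were not analysed here. List symbols that the count table does not use were left out. The alternatives changed the scaling, the pseudocount (0.1 or 1 TPM), the filter on A, the centring and the threshold.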

Additional observations from a re-analysis of the deposited data

How the results depend on the processing

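Counting error is the only error that these data give. No paired analysis was possible because a single library was made per condition. Of the 10 genes, 8 of 9 tested were called lower under CPM, TMM scaling, DESeq2's size factors, no filter on A or 10 reads in each library. With either pseudocount, centred M or the whole interval 6 of 7 were, with M < −1 5 of 7, and with A > 2 4 of 5. Over all genes, 1182 of 11806 were lower with CPM, and 1203 and 1210 of 11807 with TMM and DESeq2's size factors. With 0.1 or 1 TPM added or centred M, 1303, 1068 and 1170 of 11754 were lower. The whole interval gave 977 of 11754, 10 reads 1853 of 13492 and A > 2 928 of 9938. The median M of the members stayed between −2.07 and −2.02 except with 1 TPM added, where it was −0.91. Adding 1 TPM moved *Gbp6* to −0.83 and *Tgtp1* to −0.43, and *Gbp2* stayed above −0.5 throughout. No M of the 10 genes changed sign. The median M of dynamins and atlastins, −0.01, was 0.04 with CPM and 0.03 with TMM, DESeq2's size factors or centring. For the further GBPs, 2 of 2 were lower with no filter on A or with 10 reads, and the median M was −0.91 with 1 TPM added. For the further IRGs, 4 of 8 were lower with no filter, 2 of 6 with 10 reads and 0 of 2 with A > 2. For Mx and VLIG genes, 3 of 4 were lower with no filter or with 10 reads. Over all genes, no filter gave 2103 lower and 1428 higher of 14149, and a threshold of 1 gave 384 and 207 of 11754. Higher genes numbered 393 of 9938 with A > 2, 1159 of 13492 with 10 reads and 442 of 11754 by the whole interval. These filters and thresholds change which genes are tested or the bar they must pass.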
